A study of Mus musculus with 4 samples.

Results

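Promoters of long noncoding RNAs (lncRNAs) that lie away from any protein-coding start were followed in ATAC-seq peak lists from mouse brain tumors. ATAC-seq uses a transposase that cuts open chromatin, so a peak marks a stretch where the DNA is accessible. Peaks of the 4 libraries that shared at least 1 bp were merged into 122166 regions, of which 119740 were autosomal. A region was kept when it came within 500 bp of a transcript start of a lncRNA gene and lay more than 2 kb from every protein-coding transcript start, both in GENCODE M21. This gave 1844 regions at the starts of 1718 lncRNA genes, taken from 10120 annotated lncRNA genes with 15627 transcript starts. The choice used positions alone and no peak height. A region just inside the lncRNA limit lay 500 bp from the start of Meg3, with 72 and 61 read ends stacked at its summit in KO and 46 and 89 in WT. Just outside it, a region 503 bp from Gm15326 had 37 and 37 in KO and 28 and 34 in WT. At the coding limit, Gm15873 was kept at 2013 bp from Tnni3, with 40 and 51 in KO and 39 and 56 in WT, whereas Gm26664 was left out at 1987 bp from Ier2, with 76 and 89 in KO and 58 and 88 in WT.

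Tumors were grown from mG7080 cells, a murine glioblastoma line, injected into the brains of C57BL/6 hosts, given as C57BL/6J in the study's methods. Esm1 KO hosts lacked Esm1, which encodes the secreted endothelial proteoglycan Endocan, whereas WT hosts carried it. The knockout was in the host, and the Esm1 status of the implanted cells, the same line in both groups, was not tested. There were 2 KO and 2 WT tumors from young adult hosts, with 1 library each. GEO's labels speak of tumor tissue and the study's methods of freshly isolated tumor cells, so host cells may be present. No library had a peak within 1000 bp of the Esm1 gene, which therefore did not check the host genotype.

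A lncRNA is a transcript that is not translated into protein. Some act in the nucleus on gene expression or on RNA processing, some matter mainly as hosts from which microRNAs (miRNAs) or small nucleolar RNAs (snoRNAs) are cut, and some are transcribed from an imprinted allele. Where a lncRNA starts beside a coding gene, open chromatin cannot be assigned to one of them, which is why starts far from coding genes are informative. An open promoter does not show that the RNA was made.

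The lists held 82975 and 85418 peaks in KO replicates 1 and 2, and 63000 and 100088 peaks in WT replicates 1 and 2. The height of each peak, in read ends stacked at its summit, was recovered from the deposited values. The smallest background in a list was taken as that library's genome background, which scales with depth, and was 6.03 and 6.71 read ends in KO and 4.41 and 6.85 in WT. WT replicate 1 was thus the shallowest library, and the lowest height called was 15 and 16 in KO and 13 and 16 in WT. A region without a peak may hold signal below these heights. WT replicate 1 also stood apart in cell type markers. All 6 mature oligodendrocyte promoters on the list had a peak there, with a summed height of 49.6 times the genome background, against 2 of 6 in each KO library (15.6 and 15.2) and in WT replicate 2 (15.8). The defining genes Mog, Mag, Mobp and Opalin had no peak outside WT replicate 1. Glioma and precursor promoters had a peak at 6 and 7 of 8 genes in KO (summed height 42.3 and 65.1) and at 7 of 8 in each WT library (61.6 and 43.4). Endothelial promoters had a peak at 1 and 2 of 7 genes in KO (4.65 and 8.05) and at 1 and 3 in WT (4.98 and 10.4). Kdr had a peak in all 4 libraries, and Cdh5, Pecam1 and Tek in none. Microglial promoters had a peak at 2 of 8 genes in each KO library (12.9 and 9.98) and at 0 and 2 in WT (0 and 14.5). Aif1 had a peak in all but WT replicate 1, and Cd68 in KO replicate 1 and WT replicate 2. Cx3cr1, P2ry12 and Csf1r had none. T cell promoters had a peak at 0 and 1 of 5 genes in KO (0 and 2.53) and at 0 and 1 in WT (0 and 3.07). Neuronal promoters had a peak at 5 of 6 genes in each KO library (66.2 and 52.6), and at 6 and 5 in WT (76.8 and 65.3). The part of these markers in the results below was not tested.

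The promoters that the results turn on are shown as 300 bases, from 250 before to 50 after the annotated start, on the strand of the lncRNA in GRCm38.p6. Capitals mark each CpG dinucleotide, the site of DNA methylation, which is dense in the promoters of broadly used genes and sparse elsewhere. The first is the only promoter whose height was called different between the groups, and the next 3 were among the tallest in every library.
Pvt1 (chr15:62037736-62038035, plus strand): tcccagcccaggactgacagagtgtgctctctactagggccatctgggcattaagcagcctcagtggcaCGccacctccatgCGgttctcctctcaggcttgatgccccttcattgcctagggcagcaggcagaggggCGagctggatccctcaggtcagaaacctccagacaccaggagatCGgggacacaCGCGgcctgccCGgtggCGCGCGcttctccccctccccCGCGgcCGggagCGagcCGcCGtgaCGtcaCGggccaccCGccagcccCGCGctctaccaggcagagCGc
6720427I07Rik (chr13:48546451-48546750, minus strand): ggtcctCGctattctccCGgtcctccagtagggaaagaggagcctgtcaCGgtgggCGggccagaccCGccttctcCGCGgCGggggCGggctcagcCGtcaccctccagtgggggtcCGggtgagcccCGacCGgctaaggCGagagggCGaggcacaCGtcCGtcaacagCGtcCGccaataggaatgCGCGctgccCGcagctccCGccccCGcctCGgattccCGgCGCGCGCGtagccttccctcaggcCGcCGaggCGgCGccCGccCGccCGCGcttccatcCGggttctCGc
Gm20732 (chr15:68363127-68363426, minus strand): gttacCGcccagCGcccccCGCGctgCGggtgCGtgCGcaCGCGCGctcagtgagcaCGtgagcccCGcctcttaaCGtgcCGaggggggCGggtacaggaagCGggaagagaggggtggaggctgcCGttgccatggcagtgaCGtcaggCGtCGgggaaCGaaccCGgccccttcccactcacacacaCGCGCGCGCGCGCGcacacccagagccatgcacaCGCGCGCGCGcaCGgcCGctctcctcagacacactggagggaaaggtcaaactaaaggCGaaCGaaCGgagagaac
Snhg8 (chr3:123508355-123508654, minus strand): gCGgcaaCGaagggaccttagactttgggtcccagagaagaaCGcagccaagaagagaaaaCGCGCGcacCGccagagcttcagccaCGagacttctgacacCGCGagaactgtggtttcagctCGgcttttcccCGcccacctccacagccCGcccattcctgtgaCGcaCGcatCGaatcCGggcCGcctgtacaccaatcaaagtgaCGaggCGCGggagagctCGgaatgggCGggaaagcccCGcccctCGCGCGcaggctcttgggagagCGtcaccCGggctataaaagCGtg
They held 22, 40, 39 and 30 CpG in the order shown.

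The following 4 windows belong to regions open in 1 group alone, the first pair in both KO libraries and the second pair in both WT libraries. The region of 5031425F14Rik begins 384 bp past its annotated start, so the window shown for it lies outside the peaks.
Gm47157 (chr13:34814495-34814794, minus strand): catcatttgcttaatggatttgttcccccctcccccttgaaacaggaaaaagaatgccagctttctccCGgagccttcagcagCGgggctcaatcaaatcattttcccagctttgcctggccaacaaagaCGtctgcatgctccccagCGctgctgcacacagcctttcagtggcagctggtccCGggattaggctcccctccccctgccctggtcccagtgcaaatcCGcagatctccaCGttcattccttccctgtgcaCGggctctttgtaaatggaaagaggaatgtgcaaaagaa
5031425F14Rik (chr2:166447201-166447500, plus strand): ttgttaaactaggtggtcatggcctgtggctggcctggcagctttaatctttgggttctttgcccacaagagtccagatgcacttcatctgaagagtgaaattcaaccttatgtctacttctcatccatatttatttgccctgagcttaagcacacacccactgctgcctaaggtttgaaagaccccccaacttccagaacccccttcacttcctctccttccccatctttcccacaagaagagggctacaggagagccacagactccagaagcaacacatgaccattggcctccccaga
Gm29296 (chr7:51772677-51772976, minus strand): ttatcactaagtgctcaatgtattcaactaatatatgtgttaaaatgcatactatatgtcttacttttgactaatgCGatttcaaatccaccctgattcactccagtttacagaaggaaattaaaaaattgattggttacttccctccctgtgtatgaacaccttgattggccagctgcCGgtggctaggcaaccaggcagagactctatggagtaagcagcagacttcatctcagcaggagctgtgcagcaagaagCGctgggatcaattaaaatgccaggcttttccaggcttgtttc
CT030155.1 (chr17:67629283-67629582, minus strand): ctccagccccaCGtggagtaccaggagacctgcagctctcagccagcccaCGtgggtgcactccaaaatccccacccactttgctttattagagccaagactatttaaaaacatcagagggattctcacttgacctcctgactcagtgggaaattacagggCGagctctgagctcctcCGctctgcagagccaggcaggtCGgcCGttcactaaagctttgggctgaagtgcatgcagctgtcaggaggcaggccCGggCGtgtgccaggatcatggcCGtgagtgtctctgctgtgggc
They held 8, 0, 3 and 9 CpG, fewer than the 4 windows above. This does not hold for all named promoters, since the window of the tall Gm26917 held 8 CpG, that of KO-only Gm7292 held 21 and that of WT-only 2410018L13Rik held 28.

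Of the 1844 promoter regions, 967 (52.4%) had a peak in all 4 libraries, beside 39.4% of all autosomal regions. The share among 17022 regions within 500 bp of a coding start was 80.3%, and among 93892 regions over 2 kb from any coding or lncRNA start it was 32.1%. The lncRNA promoters therefore stood between coding promoters and distal sites, as a description without a test. A peak was found in 1 library at 431 of them, in 2 at 219 and in 3 at 227. By library, 1328 (72.0%) and 1437 (77.9%) had a peak in KO replicates 1 and 2, and 1155 (62.6%) and 1498 (81.2%) in WT replicates 1 and 2. Mean numbers were 1382.5 in KO and 1326.5 in WT, a difference of 56.0 that lay within the spread of the WT tumors (two-sided exact permutation test, p = 1.00, n = 2 per group, smallest possible p = 0.333). Without WT replicate 1 the difference turned to -116. With equal numbers of peaks it was 2.5, and with a minimum of 5 in -log10 q it was 29.

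**Figure D1:**
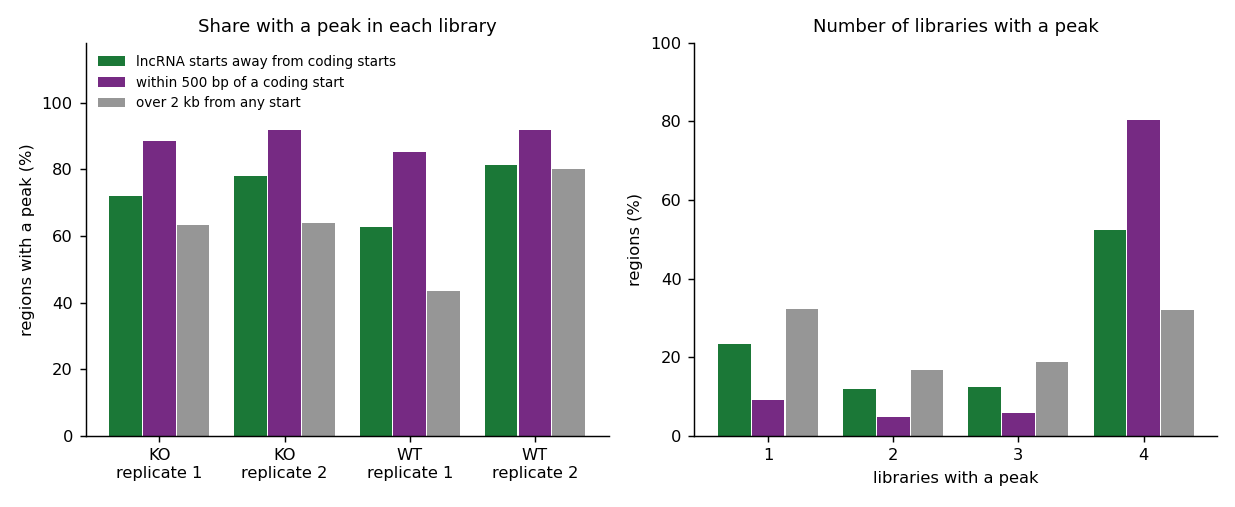
Share of regions with a peak, in percent, in each library (left) and by number of libraries with a peak (right), for lncRNA starts away from coding starts (n = 1844), regions within 500 bp of a coding start (n = 17022) and regions over 2 kb from any start (n = 93892). In each library the lncRNA starts lie between the other sets, and 52.4% of them had a peak in all 4 libraries.

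Heights followed the same order. Over the regions with a peak in all 4 libraries, lncRNA promoters had a median height of 7.14 and 7.15 times the genome background in KO and of 7.48 and 7.59 in WT. Coding promoters reached 11.6 and 12.1 in KO and 13.6 and 11.8 in WT, and distal sites 5.97 and 5.51 in KO and 5.66 and 6.43 in WT. Among the 5 gene types, 1145 regions belonged to lincRNAs (transcripts between genes), 455 to antisense RNAs, 206 to processed transcripts, 35 to sense intronic RNAs and 3 to bidirectional promoter lncRNAs. The share with a peak in all 4 libraries was 51.9% for lincRNAs, 48.8% for antisense RNAs, 65.0% for processed transcripts and 45.7% for sense intronic RNAs. A start outside every coding gene was seen for 1388 regions, with 53.8% open in all 4 libraries, and a start inside a coding gene on the opposite strand for 388, with 47.4%. The median distance from a region to the nearest coding start was 37.1 kb, and 776 regions (42.1%) lay more than 50 kb away.

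Summit positions relative to the start are a description, since regions were kept for lying near one. In the 967 regions open in all 4 libraries the median summit lay at -20 and -27 bases from the start in KO and at -27 and -20 in WT, a negative value being before the start. From 57.0% to 59.2% of summits fell within 250 bases of the start, depending on the library, and the rest lay further away. The quartiles of the summits were -168 and 202 bases in KO replicate 1 and -167 and 210 in WT replicate 2. At some genes the annotated start and the open site were further apart. The summit of Mir17hg lay at -788 bases from the start and that of the taller Malat1 region at -963 bases. Where the region covered the start itself (1240 regions), 63.1% were open in all 4 libraries, beside 30.6% of the 604 regions that did not reach it. Their median widths were 840 and 452.5 bp in the same order. A region merges the peaks of all libraries, so a peak in more libraries can widen it. The part of width in these shares was not tested.

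**Figure D2:**
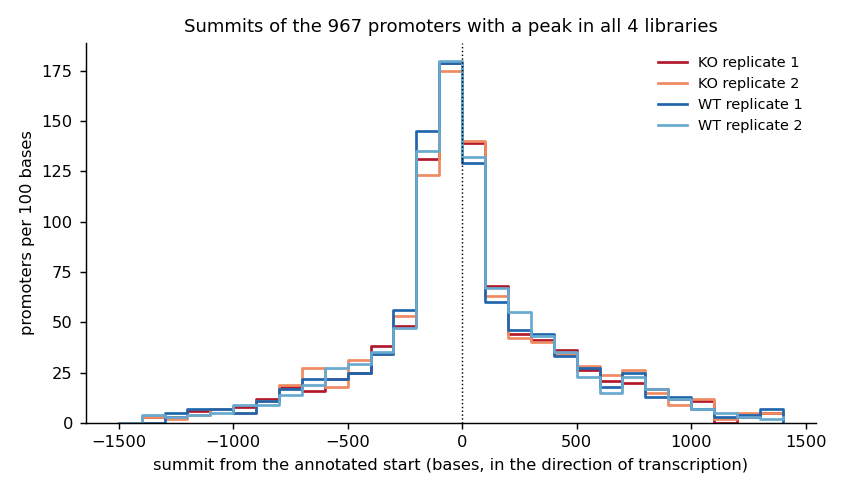
Position of the peak summit relative to the annotated lncRNA start, in bases along the direction of transcription, for 967 promoters with a peak in all 4 libraries, counted per 100 bases in each library. The 4 libraries overlie each other, with the median at -20 or -27 bases.

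CpG content went with presence in all libraries. The ratio of observed to expected CpG had a median of 0.369 in the 967 promoters open in all 4 libraries and of 0.241 in 429 open in 1 library. All annotated autosomal lncRNA starts, those beside coding starts included, had a median of 0.282 and the coding promoter regions of 0.677. Of 279 lncRNA promoters with a ratio above 0.6, 215 (77.1%) were open in all 4 libraries and 28 in 1. Among 1563 with a lower ratio, 752 (48.1%) were open in all 4 and 401 in 1. The CpG-rich promoters were also taller where open in all 4, with medians of 10.5 and 10.3 times the genome background in KO and 12.2 and 10.7 in WT, against 6.64 and 6.41 in KO and 6.80 and 7.01 in WT for the rest. The ratio was read in a fixed window at the start, which some regions did not reach. The 604 regions that did not reach the start had a median ratio of 0.231, beside 0.350 for those that covered it. The part of this in the difference was not tested. The parts of depth, CpG content and the calling of low peaks were not separated. The ratio was not read for 2 regions.

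Short motifs were counted on both strands of the same windows, as letters only. The GC box GGGCGG was found in 23.5% of lncRNA promoters open in all 4 libraries and in 12.4% of those open in 1 library, with 17.9% over all of them, beside 19.8% of all lncRNA starts and 54.1% of coding promoter regions. TATAAA was found in 13.6% of all 1842 windows read, 13.7% of all lncRNA starts and 7.16% of coding promoter regions. The E-box CAGCTG was found in 22.6%, 18.4% and 17.3% in the same order, TGANTCA in 11.1%, 9.0% and 5.64%, and CACGTG in 7.76%, 6.07% and 8.63%. CCAAT differed little between the sets, at 35.7%, 36.1% and 33.3%. The remaining motifs, in the same order, were ACAATG at 15.7%, 15.4% and 7.72%, CATATG at 3.91%, 4.32% and 2.09%, ATTTGCAT at 2.66%, 1.82% and 1.33%, TGACGTCA at 1.41%, 1.39% and 2.46%, and CCGGAAGT at 1.25%, 1.97% and 5.01%. CCGGAAGT and GGGCGG, both rich in C and G, were the motifs most thinly spread over lncRNA promoters relative to coding ones. All lncRNA starts here were the annotated autosomal ones, with those beside coding starts included. Coding windows were placed at the start nearest the region, and lncRNA promoter windows at the start nearest the tallest summit. No test was run on these shares.

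**Figure D3:**
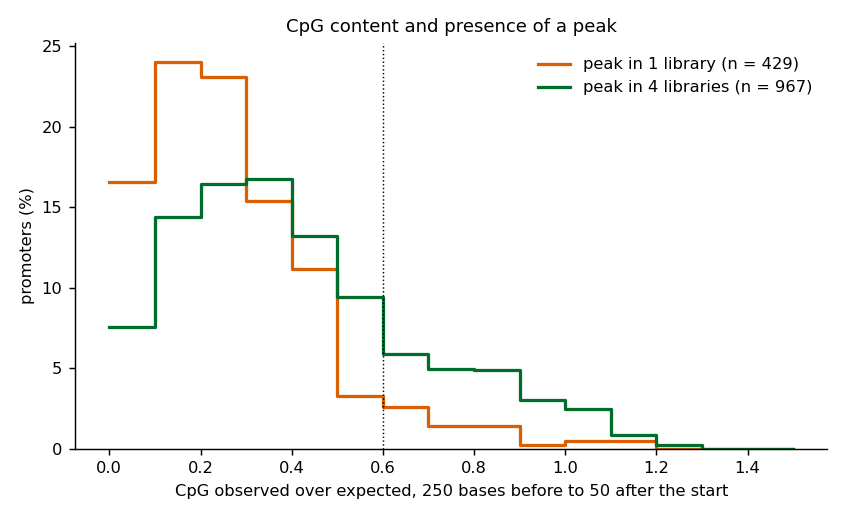
Ratio of observed to expected CpG in the 300 bases around the start, for promoters with a peak in 1 library (n = 429) and in all 4 libraries (n = 967), as percent of promoters per step of the ratio. The dotted line marks 0.6, above which lay 22.2% of the promoters open in all 4 libraries and 6.53% of those open in 1.

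The tallest of the lncRNA promoters, by mean height over the genome background, lay over Gm26917 (chr17:39843066-39848810). It reached 299 and 312 read ends in KO and 283 and 310 in WT, from 45.3 to 64.1 times the genome background. The same region holds the annotated ribosomal RNA gene CT010467.1 and the lncRNAs Gm42418 and AY036118, and its local background was 22.0 to 30.1 times that of the genome in the 4 libraries. Reads of the many ribosomal RNA copies cannot be told apart from reads of this locus in the deposited lists. Below it, Gm26901 (chr1:7397086-7398694) had 124 and 164 read ends in KO and 142 and 159 in WT. The groups overlapped. The host of let-7a-1, let-7d and let-7f-1, 6720427I07Rik (chr13:48545501-48546951), had 135 and 155 in KO and 139 and 156 in WT. Gm20732 (chr15:68362439-68363989), which holds the miR-30d gene, had 140 and 152 in KO and 117 and 162 in WT. In read ends the ranges of the groups overlapped at both hosts. Over the genome background Gm20732 had 23.2 and 22.6 in KO and 26.5 and 23.7 in WT, so that both WT values were higher. That scale put the median log2 difference of all regions, KO minus WT, at -0.098. With each library's median subtracted instead, the difference at Gm20732 was -0.03. The remaining members of the 10 tallest were 1700028E10Rik, 1810026B05Rik, 15865 bp from a start of Chd2, Gm6410, Zswim6, Snhg8 and Gm34590, at 116 to 154 read ends in KO and 104 to 150 in WT. Zswim6 is typed as a processed transcript in GENCODE M21 although its symbol is that of a coding gene. None of the 10 had an adjusted p under 0.05 in limma. The ratio of observed to expected CpG was at least 0.697 in each.

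MiRNA hosts are lncRNAs that give rise to short regulatory RNAs, and an annotated miRNA gene lay inside the lncRNA gene at 81 regions of 50 genes. Of these regions 51 (63.0%) were open in all 4 libraries. Their median height was 10.6 and 9.98 times the genome background in KO and 11.1 and 11.0 in WT. Some mature sequences of these hosts are shown because the hosts differ in how many libraries they were open in. Capitals mark the seed, bases 2 to 8, with which a miRNA pairs to its targets (RefSeq, GRCm38.p6).
mmu-let-7a-5p: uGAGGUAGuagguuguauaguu
mmu-let-7d-5p: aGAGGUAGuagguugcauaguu
mmu-let-7f-5p: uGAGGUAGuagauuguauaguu
mmu-miR-9-5p: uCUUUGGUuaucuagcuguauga
mmu-miR-17-5p: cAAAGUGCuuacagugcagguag
mmu-miR-155-5p: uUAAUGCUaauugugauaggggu
The 3 let-7 miRNAs share 1 seed and 1 promoter, that of 6720427I07Rik. Of the 72 miRNA genes inside these hosts, 52 matched a mature sequence in the table.

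miR-9 and miR-124 are known for their part in neural differentiation. C130071C03Rik, the host of miR-9-2, was open in all 4 libraries at chr13:83720933-83722839, with 91 and 105 read ends in KO and 67 and 117 in WT, and at chr13:83739314-83740270, with 89 and 76 in KO and 50 and 95 in WT. A further site between them had 70 read ends in KO replicate 2 and no peak elsewhere. The first site of Mir9-3hg had 73 and 78 in KO and 55 and 86 in WT. At the start open in all libraries, Mir124a-1hg had 87 and 85 in KO and 67 and 103 in WT, and Mir124-2hg had 66 and 62 in KO and 52 and 83 in WT. In read ends, which are not scaled for depth, the WT values lay on both sides of those in KO in each of these. Over the genome background the first site of Mir9-3hg had 12.1 and 11.6 in KO and 12.5 and 12.6 in WT. On that scale both WT values were also higher at the named starts of Mir124a-1hg and Mir124-2hg. The groups still overlapped there at both C130071C03Rik sites open in all libraries. That scale put the median log2 difference of all regions, KO minus WT, at -0.098. The share of all regions without overlap on it was not counted. With each library's median subtracted instead, the difference was 0.02 at the first site of Mir9-3hg, -0.07 at Mir124a-1hg and -0.15 at Mir124-2hg. Mir17hg, the host of the miR-17 cluster and a known MYC target, had 85 and 109 in KO and 75 and 93 in WT. Dleu2, the host of miR-15a and miR-16-1, was open at 2 starts, with 88 and 107 in KO and 68 and 88 in WT at the taller. Mir99ahg, the host of miR-99a, let-7c-1 and miR-125b-2, was open at 4 starts in all libraries, from 26 to 83 read ends in KO and 20 to 81 in WT. Mir155hg, the host of the immune miRNA miR-155, had a peak of 27 read ends in KO replicate 2 alone. Mir142hg, a blood cell host, had no region at its start. Of 19 miRNA hosts on the list, 14 were annotated as lncRNAs, 10 had a region in the set and 8 of these had one open in all 4 libraries. None of the 15 regions tested passed, and their median log2 difference in height, KO minus WT, was 0.03 beside -0.004 over all regions tested.

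SnoRNA hosts are spliced RNAs whose introns carry the guides of ribosomal RNA modification. Of 21 on the list, 17 were annotated as lncRNAs. Of these, 10 had a region in the set, all 10 of them open in all 4 libraries, and the other 7 had a region within 2 kb of a coding start, among them Gas5, Snhg1 and Zfas1, and were not followed here. Snhg8 (chr3:123507875-123509323) had 116 and 143 read ends in KO and 105 and 144 in WT. Dancr, which holds back differentiation in several cell types, had 92 and 123 in KO and 102 and 124 in WT. Snhg5 had 73 and 93 in KO and 68 and 91 in WT, and Snhg15 had 80 and 116 in KO and 66 and 86 in WT. Ranges of the groups overlapped in all 4. None of the 10 passed, and the median log2 difference was -0.02.

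Of 7 annotated lncRNAs on the list of nuclear or abundant lncRNAs, 4 had a region in the set, each gene with one open in all 4 libraries. Malat1, which resides in splicing speckles, had 93 and 103 read ends in KO and 78 and 112 in WT at chr19:5803114-5804099, which begins 442 bp from its start. The region over the Malat1 start itself (chr19:5802501-5802748) had 53 read ends in KO replicate 2 and no peak elsewhere. Neat1, which scaffolds paraspeckles, had 95 and 112 in KO and 81 and 114 in WT at a region that also spans the start of Frmd8os. Miat had 67 and 61 in KO and 54 and 78 in WT. The lists share some genes, and of the 7 regions of the nuclear list 4 were tested and none passed, with a median log2 difference of -0.06.

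Imprinted lncRNAs are made from 1 parental allele. Kcnq1ot1, which silences neighbors on the paternal chromosome, had 73 and 87 read ends in KO and 58 and 82 in WT. Airn, which silences Igf2r in the same way, was lower, at 28 and 39 in KO and 25 and 26 in WT. Peg13 had 61 and 82 in KO and 62 and 74 in WT. Snhg14, which lies in the Snrpn domain, had 59 and 54 in KO and 38 and 62 in WT. H19 and Rian had no region at their starts. Meg3, a maternally expressed RNA with tumor suppressor activity in several tissues, was open in all libraries at chr12:109542768-109543758, with 72 and 61 in KO and 46 and 89 in WT. A second Meg3 start (chr12:109542054-109542322) had 35 and 44 read ends in WT and no peak in KO, but a KO peak began 445 bases from it. A further Meg3 start had 38 and 33 in KO and a peak of 52 in WT replicate 2 alone of the WT libraries. The 5 imprinted regions tested had a median log2 difference of 0.09 and none passed.

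Of 30 neural development lncRNAs on the list, 23 were annotated, 12 had a region in the set and 8 of these had one open in all 4 libraries, beside 933 of all 1718 genes with a region. Of their 25 regions, 11 were open in all 4 libraries. Zfhx2os had 82 and 105 read ends in KO and 67 and 105 in WT. Pantr2, whose region lay 17495 bp from a start of the neural factor gene Pou3f3, had 46 and 79 in KO and 45 and 40 in WT. Sox2ot, within which Sox2 lies, was open in all libraries at 2 starts, the nearer with 34 and 41 in KO and 28 and 47 in WT and the other with 28 and 54 in KO and 27 and 28 in WT. Its other 4 start regions had a peak in 1 library each. Rmst, a partner of Sox2 in neurogenesis, had 25 and 27 in KO and 30 in WT replicate 2, with no peak in WT replicate 1 at this start. That region also came within 500 bp of a start of Gm26700. Another Rmst region (chr10:92164931-92165237) had a peak of 20 read ends in WT replicate 1 alone. Dlx1as, at 24 read ends in WT replicate 2, and Six3os1, at 33 in KO replicate 2, had a peak in 1 library each. The 11 neural regions tested had a median log2 difference of 0.02, and none passed. At the HOX clusters, 2 of 10 annotated lncRNAs had a region in the set, beside 1718 of 10120 lncRNA genes in all, so that nothing is read from this count. Hotairm1 and Hoxaas3 had a region within 2 kb of a coding start and were left out for that. Hoxd3os1 had 20 and 47 in KO and 21 and 30 in WT, and Haglr had 22 in KO replicate 2 alone. Hotair and Hottip had no region at their starts. Of the immune and inflammatory lncRNAs, 4 of 8 annotated on autosomes had a region in the set, and 2 of these had one open in all 4 libraries, Ptgs2os2, at 29 and 24 in KO and 18 and 21 in WT, and the Neat1 region.

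**Figure D4:**
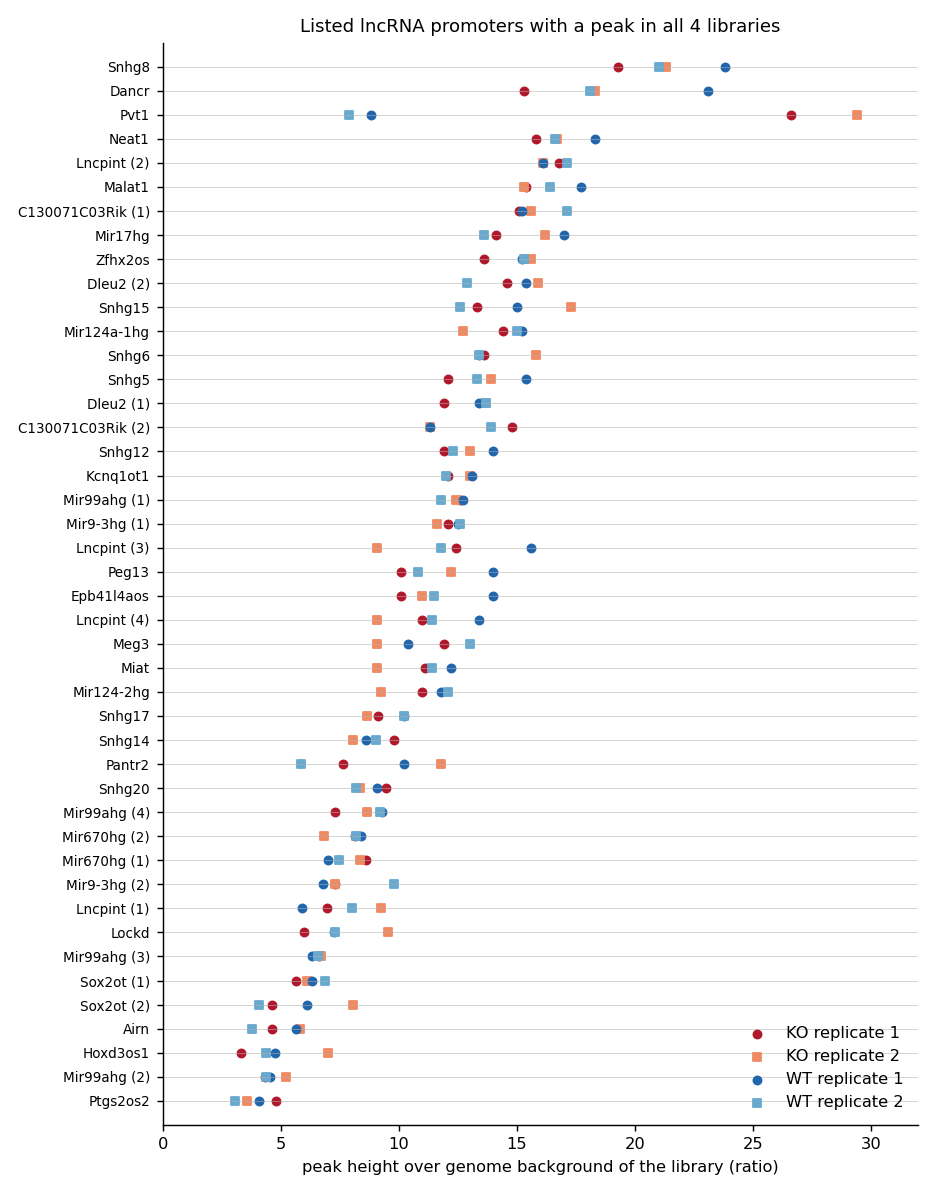
Peak height over the genome background of each library for the regions of listed lncRNA genes with a peak in all 4 libraries, ordered by their mean, with numbers in parentheses for genes with several regions. KO and WT points overlie in most rows, and Pvt1 is the row in which both KO points (26.6 and 29.4) stand far from both WT points (8.83 and 7.89).

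Pvt1 was the 1 promoter called by height. Pvt1 lies downstream of Myc, 49535 bp from its start at the nearest edge, and is co-amplified with it in several cancers. Its first start region (chr15:62036957-62039271, ENSMUSG00000097039.8) had 160 and 197 read ends in KO and 39 and 54 in WT, so that both KO values lay above both WT values. Heights were tested with limma on the log2 scale over all 48089 regions with a peak in all 4 libraries. At Pvt1 the log2 difference, KO minus WT, was 1.84 (SE 0.25, adjusted p = 8.32e-10). Over all regions 18 (0.0374%) were higher in KO and 1 (0.00208%) was lower. Among the 967 lncRNA promoters tested, Pvt1 alone was higher and 0 were lower at an adjusted p under 0.05, with 41 (4.24%) at an unadjusted p under 0.05, beside 3.08% of all regions. The median log2 difference was -0.011 over the lncRNA promoters and -0.004 over all regions. The test rests on a spread shared by all regions of like height, since the fit gave no weight to the spread of a single region.

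The local background of Pvt1 moved with its height. Around its first start the local background was 9.63 and 10.8 times the genome background in KO and 1.84 and 1.78 times in WT. The authors' fold over local background, which divides by it, was 2.73 and 2.69 in KO and 4.38 and 4.17 in WT, so that with this measure the log2 difference was -0.62 (limma, adjusted p = 0.990). Neighboring peaks had the same raised background. In both KO libraries an unbroken run of peaks, each at 2 or more times the genome background in its local background, covered 1808 kb of chromosome 15 (chr15:61858247-63665766), with medians of 4.90 and 4.70 in KO and 1.00 and 1.00 in WT. Of the 19 regions called in all, 13 lay in this segment, out of 17 tested in it. The other Pvt1 starts in the segment lacked a peak in 1 library each. The start at chr15:62222787-62223849 had 77 and 95 read ends in KO and 14 in WT replicate 1, with no peak in WT replicate 2. The start at chr15:62098824-62099120 had a peak of 82 read ends in KO replicate 2 and no peak in KO replicate 1, against 15 and 24 in WT. Gm41335, the fourth member in the segment, had 60 read ends in KO replicate 2 and no peak in KO replicate 1, against 21 and 35 in WT. More copies of the segment and more open chromatin across it cannot be told apart from the deposited lists. The window of the first Pvt1 start holds TGACGTCA once, from the base 3 of the transcript.

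**Figure D5:**
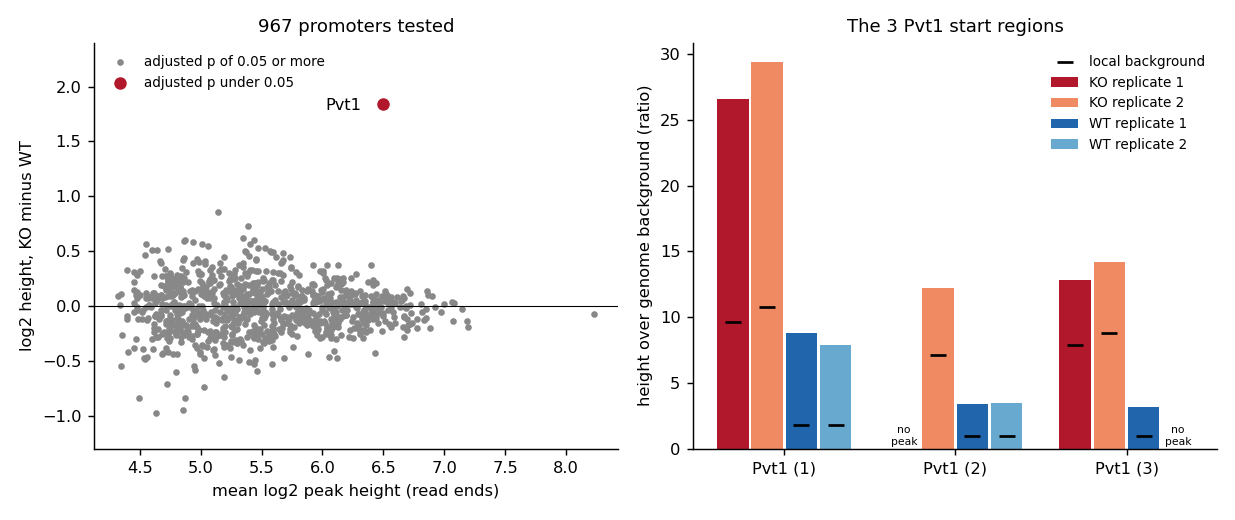
Left, log2 difference in peak height, KO minus WT, against mean log2 height in read ends for the 967 promoters with a peak in all 4 libraries, with Pvt1 (1.84) as the point past an adjusted p of 0.05. Right, height over genome background at the 3 Pvt1 start regions in each library, with the local background as a black bar, which is 7.16 to 10.8 at the KO peaks and 1.00 to 1.84 at the WT peaks.

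Away from this segment no lncRNA promoter passed. Without WT replicate 2, 3 were lower in KO, namely Gm36595, Gm47061 and Gm48302. The next smallest p among them belonged to Gm48302 (chr13:75726768-75727526), inside Ell2, with 19 and 18 read ends in KO and 32 and 35 in WT (log2 difference -0.97, SE 0.26, limma adjusted p = 0.205). The groups did not overlap there. Gm47450 had 18 and 26 in KO and 33 and 45 in WT (log2 difference -0.95, SE 0.27, limma adjusted p = 0.350). In the other direction 4930452A19Rik had 37 and 66 in KO and 21 and 30 in WT (log2 difference 0.86, SE 0.27, limma adjusted p = 0.566). The MYC and p53 linked list held, beside Pvt1, Lncpint, a p53 target, at 101 and 108 in KO and 71 and 117 in WT at its tallest start, and Lockd, downstream of Cdkn1b, at 36 and 64 in KO and 32 and 50 in WT. Trp53cor1, the p53-induced lincRNA-p21, had 35 read ends in KO replicate 2 alone. Of the 8 regions of this list tested, the first Pvt1 start was the 1 that passed, and the median log2 difference was 0.08.

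A peak in both KO libraries and neither WT library was found at 25 lncRNA promoters (1.36%), beside 1.65% of all autosomal regions. The reverse was found at 22 (1.19%), beside 1.46% of all autosomal regions. Both shares were near the background. The KO-only peaks were low, with heights of 17 to 32 read ends in KO replicate 1 (median 21) and 19 to 58 in KO replicate 2 (median 26). The WT-only peaks had 13 to 35 read ends in WT replicate 1 (median 18) and 20 to 44 in WT replicate 2 (median 27.5). The lowest values equal or lie close to the lowest height called in each library.

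Of the KO-only promoters, Gm47157 (chr13:34814344-34815322) had the highest lower percentile of fold, with 28 and 58 read ends in KO and no peak in WT within 12968 bp. 5031425F14Rik (chr2:166447835-166448475) had 26 and 27. Gm48857 had 21 and 38, and Gm47761, whose nearest coding start 399648 bp away is that of Cited2, had 20 and 39. Gm11681, 16817 bp from the glial and neural crest factor gene Sox9, had 21 and 21. Gm26968 inside Ccdc171, Gm28277 inside Ipo9, Gm7292, Gm47948 and Gm12910 completed the 10 with the highest lower percentile of fold, at 20 to 22 in KO replicate 1 and 21 to 27 in KO replicate 2.

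Of the WT-only promoters, Gm29296 (chr7:51772531-51772826) had 27 and 25 read ends in WT and no KO peak within 22450 bp. CT030155.1 (chr17:67628450-67629584) had 19 and 25, 6330411D24Rik had 29 and 24, and A330049N07Rik, 12153 bp from a start of Pcdh15, had 30 and 22. 2410018L13Rik had 17 and 31. AC141639.4, Gm44176, 4930511M06Rik inside Ccdc192, Gm12408 and Gm1992 inside Xkr4 made up the 10, at 17 to 18 in WT replicate 1 and 21 to 35 in WT replicate 2. Of the 22, 2 had a KO peak within 1 kb, the second Meg3 start and AC131675.1. None of the 25 KO-only promoters had a WT peak within 1 kb.

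These calls depended on single libraries and thresholds. When the first KO library was left out the 25 KO-only promoters became 200, and 70 when the second was. They became 38 when the first WT library was left out and 169 when the second was. The 22 WT-only promoters became 53 after loss of either KO library, 176 after loss of the first WT library and 81 after loss of the second. With peaks of at least 5 in -log10 q, 2 of the 25 KO-only and 3 of the 22 WT-only promoters were called again, and with equal numbers of peaks 3 and 6. Gm47157 was the 1 promoter of either kind called under both of these settings, with at least 50% of the region covered and with summit windows alike. The most frequent incomplete patterns were not those of a group. KO replicate 2 alone had a peak at 175 lncRNA promoters (9.49%, beside 8.09% of autosomal regions), WT replicate 2 alone at 154 (8.35%, beside 14.2%), and all but WT replicate 1 at 148 (8.03%, beside 12.2%). WT replicate 1 alone had 56 and KO replicate 1 alone 46.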

How the data were processed

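ATAC-seq libraries from 2 KO and 2 WT tumors were used, 1 deposited peak list per sample, so peaks had been called per sample. MACS2, HOMER and mm10 are named, without versions, in the submitters' processing notes, while the study's methods name Bowtie2 with GRCm38, Genrich, and the removal of duplicates and of mitochondrial reads. The columns follow MACS2. For a transposase shift of the reads, the answer was not given in the sources at hand. Per the file layout, the authors' peak caller gave each deposited peak a score, a summit offset, a ratio (its fold over the local background) and −log10 values of its p-value and its q-value. The lowest deposited −log10 q was 1.30 or 1.31 by library. Read counts were not used here, so depth is known only through the background.

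Heights were recovered as the whole number h for which the deposited fold equals (h + 1)/(b + 1) and the deposited −log10 p is the Poisson tail of h at background b. All peaks matched within 0.001. Low peaks are missed first in a shallow library. Coordinates are GRCm38. Sequence came from GRCm38.p6. Coding starts were 101652 transcript starts of 21951 genes in GENCODE M21.

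Heights were tested with limma 3.58.1 in R 4.3.3 on log2 height after each library's median had been subtracted, with a trend of variance on mean and Benjamini-Hochberg adjustment over all 48089 regions. Functions were tested on simulated data. Numbers of members per library were compared with an exact permutation test. Groups and tumor numbers came from the sample titles. Nothing says that KO and WT tumors of one number belong together. Separate tumors are labelled, so the spread within a group is a spread between tumors. The limma p-values use this spread as pooled over regions of like height, with no weight on that of a single region. They do not measure how far a single promoter varies between tumors. Alternatives varied the distances, thresholds, overlap, scaling and libraries. Named promoters were those past an adjusted p of 0.05, the 10 KO-only and 10 WT-only with the highest lower percentile of the authors' fold, the 10 tallest in all 4 libraries, those of 8 lncRNA lists, and those nearest the distance limits. The text gives a selection, and members next in p or otherwise single were named after their values were seen. The members and lists were chosen with earlier results of these data known.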

Additional observations from a re-analysis of the deposited data

How the results depend on the processing

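The number of lncRNA promoter regions (1844) was 2342 with a window of 1000 bp and 1464 to 1932 under the other alternatives of distance, threshold, overlap or coding start. KO-only promoters numbered 16 when a −log10 q of 5 or more was required and 16 when each library kept as many peaks as the smallest, where fewer peaks were used. WT-only promoters numbered 22 and 26 under the same settings, so that the larger count passed from KO to WT. Leaving out 1 library moved KO-only promoters to 38 to 200 and WT-only promoters to 53 to 176, since a call then needs 1 library of that group or lacks 1. The difference in mean numbers ran from -116 without WT replicate 1 to 219 without WT replicate 2, beside 56 with all libraries, and was 2.5 with equal numbers of peaks and 29 with the higher −log10 q. By height, 1 promoter was higher in KO with genome background, quantile normalization and no trend, as in the values given above, 0 with the authors' fold, where Pvt1 turned to -0.62, and 0 without the chromosome 15 segment, a setting chosen after seeing the data. With a peak needed in 1 library of each group, 3 were higher, all of them Pvt1 starts. With tumor number as a replicate block 1 was higher and 0 were lower, and the Pvt1 difference was 1.84. Same-numbered tumors deviated in opposite directions (r = -0.34 across regions), and with crossed numbers as a replicate block, chosen after seeing the data, 1 was higher and 2 were lower. Leaving out 1 library gave 1 to 2 higher and 0 to 3 lower, the 3 lower without WT replicate 2. The median difference was -0.105 when heights were divided by the genome background, a scaling that put the median of all regions at -0.098, and ran from -0.142 to 0.019 without 1 library. With 1 tumor left in a group, that tumor is assumed to vary like the others. The limma test sees no lost peak, and a peak under 13 to 16 read ends could not be called.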

Other observations

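LncRNA promoters of the X chromosome were outside the comparisons. By the same distances 35 regions were found there, with a peak at 28 and 31 in KO and at 24 and 28 in WT. A peak in all 4 libraries was seen at 24 (68.6%), beside 40.5% of 2293 X-linked regions. At the X-inactivation center, Ftx, a positive regulator of Xist, had 81 and 110 read ends in KO and 79 and 109 in WT at one start (chrX:103621840-103623005) and 90 and 100 in KO and 80 and 94 in WT at another. Jpx, which activates Xist, had 61 and 82 in KO and 66 and 81 in WT. Xist itself had a peak of 20 read ends in KO replicate 1 alone. Tsix had 19 in KO replicate 1 and 26 in WT replicate 2, with no peak elsewhere. Outside the center, C430049B03Rik had 22 and 48 in KO and no peak in WT. Firre, which organizes nuclear contacts between chromosomes, was open in all libraries at 2 starts, with 49 and 70 in KO and 53 and 67 in WT at the taller.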
